A study of Solanum lycopersicum with 9 samples.

Results

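The genes described here are the large heat shock chaperones of tomato (Solanum lycopersicum), in seeds that had taken up water for 6 h. They were chosen by a match of the gene descriptions to HSP60, HSP70, HSP90 and HSP101 names, heat shock cognates, ClpB or chaperonins. DnaJ proteins and transcription factors were left out. No expression value entered the match, but earlier results of these data were known when it was made. The match found 63 of the 40229 genes in the table. By description they fell into 22 HSP70 genes, 15 HSP90 genes, 18 genes of HSP60 and other chaperonins, 5 of HSP101 and ClpB and 3 of partner proteins. Of the 15 genes counted with HSP90, 6 are described as histidine kinase-, DNA gyrase B- and HSP90-like ATPase proteins, which share a fold of the ATPase domain and are not HSP90 chaperones by name, so they are given apart. Libraries were made from wild type (WT) seeds, from seeds of an SlLBD40 knockout and from seeds of an SlWRKY37 knockout, with 3 libraries each. SlLBD40 belongs to the LOB domain and SlWRKY37 to the WRKY family of plant transcription factors. All groups had the same treatment and time of imbibition, and the labels give no cultivar, allele or number of independent knockout lines.

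Chaperones bind proteins that are not folded and release them through cycles of ATP hydrolysis. HSP70 holds exposed stretches of a chain, HSP90 takes over clients that are nearly folded, and the organizing protein HOP links both. Chaperonins form barrels in plastids and mitochondria in which a chain folds alone, closed by a lid of small co-chaperonins, and HSP101 and ClpB pull single chains out of aggregates together with HSP70. In Arabidopsis, HSP101 and other heat shock proteins are made without heat as seeds mature, and HSP101 is needed for heat tolerance of germinating seeds.

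Levels were taken to be FPKM, that is, fragments per length of transcript and per size of library, and are printed for each library or as mean ± SD (n = 3). The files do not state the unit, and TPM computed with genes beyond those in the table could look alike. IDs are shortened in the table, so a gene is called by its description and chromosome, and a copy number counts genes of like name on a chromosome in table order. A gene was tested if its mean over the 9 libraries was at least 1, and called at an adjusted p below 0.05 (limma on log2(value + 1), Benjamini-Hochberg over 18346 tested genes). Log2 changes are on that log2(value + 1) scale and are given with their standard error (SE).

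The values of a library summed to between 856291 and 918103, and 23206 to 24507 genes were above 0. Read counts are not in the table, and the absolute depth is therefore unknown. From the steps between the lowest values, the smallest unit of a library was worth 1 to 1.19 times that of WT replicate 1. Only ratios near 1 entered this estimate, so a larger difference in depth could not have appeared in it. Relative depth is therefore not settled either. Whether replicates are separate plants, seed lots or repeat preparations is not in the labels, and p-values cover only the spread between these samples. The gene described as WRKY transcription factor 37 on chromosome 1 stood at 0.28, 0.70 and 0.92 in WT and at 0.23, 0 and 0 in the WRKY37 knockout, too low to be tested. The gene described as LOB domain-containing protein 40 on chromosome 5 was higher in the LBD40 knockout (40.9 ± 4.24) than in WT (12.6 ± 7.44; adjusted p = 0.0169). The sources used here do not say which genes were edited, and an edited gene can still be transcribed, so neither value checks the labels.

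Most large chaperones were expressed in imbibed seeds. Of the 63 genes, 48 were tested. A mean of at least 100 was reached by 23 genes, 16 lay between 10 and 100, and 9 between 1 and 10. A further 10 genes were above 0 with a mean below 1, and 5 are listed at 0 in all 9 libraries. Every one of the 9 genes described as chaperonin 60 was tested, while 16 of 22 HSP70 genes and 3 of 5 HSP101 and ClpB genes were. The genes lay on all 12 chromosomes, with 9 on chromosome 6 and 1 on chromosome 8.

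**Figure D1:**
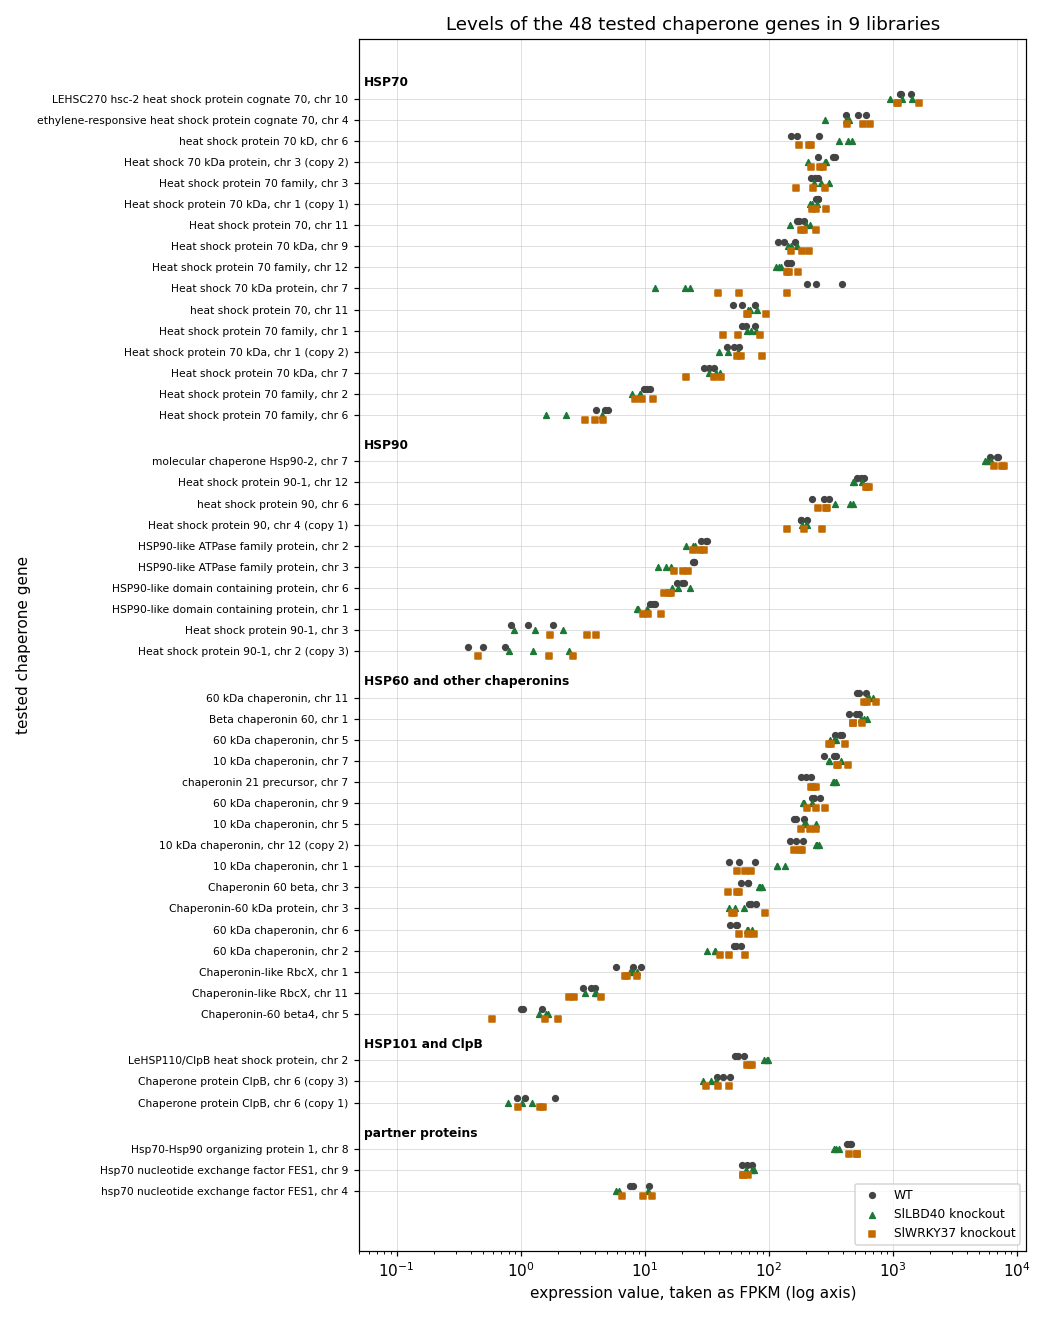
Expression values (taken as FPKM, log axis) of the 48 tested chaperone genes, ordered by family and mean level; each point is 1 library, with circles for WT, triangles for the SlLBD40 knockout and squares for the SlWRKY37 knockout. Hsp90-2 on chromosome 7 lies far to the right of all others at 5609 to 7840, and Heat shock 70 kDa protein on chromosome 7 has the widest gap between groups.

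One HSP90 gene made up a large part of all chaperone RNA. The gene described as molecular chaperone Hsp90-2 on chromosome 7, which RefSeq (assembly SLM_r2.1) lists as HSC80, stood at 7084, 6044 and 6980 in WT, at 5609, 6170 and 5748 in the LBD40 knockout and at 7584, 7840 and 6586 in the WRKY37 knockout. It ranked between 2 and 6 among all genes of a library and took 39.8 to 47.8% of the summed chaperone values. WT overlapped with both knockouts, and neither difference passed (log2 change of -0.20, SE 0.12, adjusted p = 0.230 in the LBD40 knockout; 0.13, SE 0.12, adjusted p = 0.556 in the WRKY37 knockout). All LBD40 knockout libraries lay below all WRKY37 knockout libraries, a log2 difference of -0.33 (95% interval -0.60 to -0.05) that did not pass (adjusted p = 0.0723), but did so with a minimum mean of 5 (adjusted p = 0.0448) and without WRKY37 knockout replicate 3 (adjusted p = 0.0352). Next among the HSP90 genes was Heat shock protein 90-1 on chromosome 12, at 555 ± 39.1 in WT. It had 511 ± 46.8 in the LBD40 knockout and 628 ± 17.3 in the WRKY37 knockout, with no call against WT in either. Here too the knockouts did not overlap, with a log2 difference of -0.30 (95% interval -0.52 to -0.07, adjusted p = 0.0515). That difference passed with equal library totals, a minimum mean of 5 or quantile normalization (adjusted p = 0.049, 0.0476 and 0.0454).

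Genes that follow each other in the table, which is ordered along the chromosomes, often had very unequal levels. On chromosome 3, Heat shock 70 kDa protein copy 1 had a mean of 0.108 and copy 2, in the next row, one of 273. On chromosome 12, 10 kDa chaperonin copy 1 is listed at 0 in every library beside 197 for copy 2. The ethylene-responsive heat shock protein cognate 70 on chromosome 4 (mean 484) stood beside a Heat shock cognate 70 kDa protein listed at 0, and of the ClpB copies on chromosome 6 copy 3 had a mean of 38.9 and copies 1 and 2 had 1.21 and 0. How fragments of near-identical copies were shared out is not given in the sources used here, so the split between such copies is uncertain.

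The first comparison asked which chaperone genes differed between seeds of the LBD40 knockout and WT. They went both ways: 8 of 48 rose (16.7%, beside 18% of all tested genes) and 5 fell (10.4%, beside 19.2%). Together 27.1% of the chaperone genes were called, against 37.2% of all tested genes, so calls were no more frequent among chaperones than across the transcriptome. The median log2 change was 0.04 over the 48 chaperone genes and -0.02 over all tested genes. Genes that rose came from all 4 chaperone families, and 5 of the 8 were chaperonins. The genes that fell were 1 HSP70, both called HSP90-like ATPase genes, 1 chaperonin 60 and HOP. At a log2 change of at least 1, 2 rose and 1 fell. Without LBD40 knockout replicate 2, 5 genes rose, and without LBD40 knockout replicate 1, WT replicate 1 or WT replicate 3, 3 genes fell; 8 fell with quantile normalization and 8 with only these 2 groups in the fit.

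**Figure D2:**
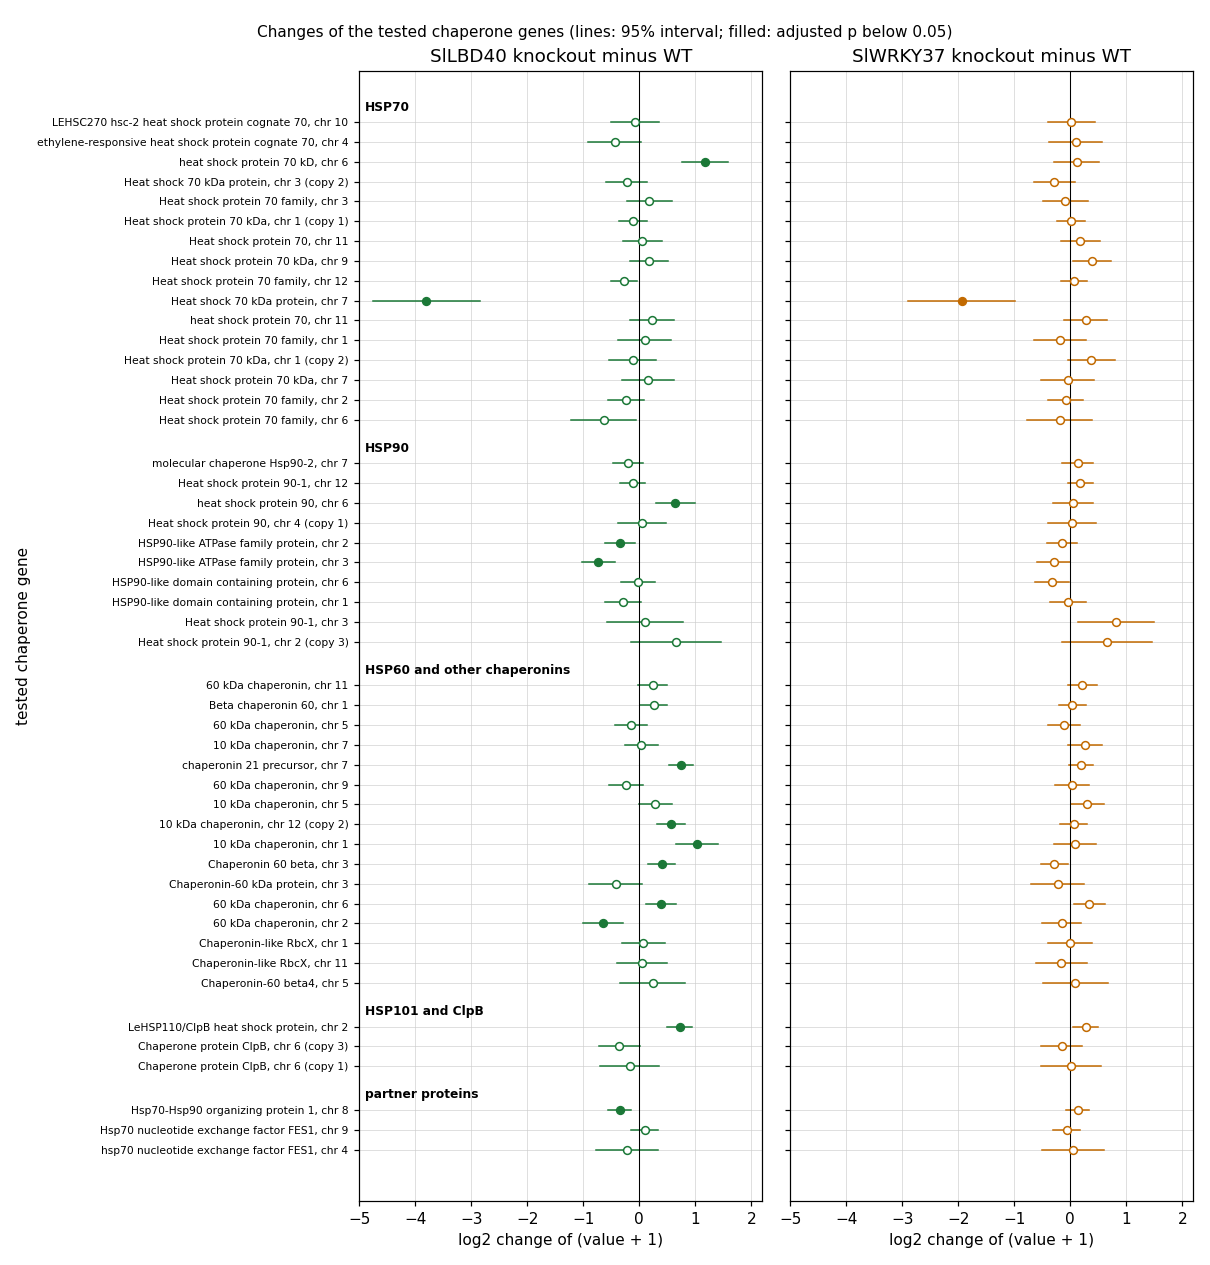
Log2 change of (value + 1) of the 48 tested chaperone genes in the SlLBD40 knockout (left) and the SlWRKY37 knockout (right) against WT, with 95% intervals as lines and filled points for an adjusted p below 0.05. In the left panel 8 points are filled to the right of 0 and 5 to the left; in the right panel 1 point is filled, Heat shock 70 kDa protein on chromosome 7 at -1.94.

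Among the matched HSP70 genes, 1 rose and 1 fell, by more than any other chaperone in each direction, and 14 of the 16 tested did not pass. That is 12.5% called, beside 37.2% of all tested genes, with 6.25% in each direction beside 18% higher and 19.2% lower. The gene that fell was Heat shock 70 kDa protein on chromosome 7, with 388, 202 and 240 in WT, 23.3, 21.2 and 12.1 in the LBD40 knockout and 39.1, 58.1 and 142 in the WRKY37 knockout. Each group stood apart from the others without overlap, WT highest and the LBD40 knockout lowest. Its mean was 14.7 times lower in the LBD40 knockout than in WT (log2 change of -3.80, SE 0.43, adjusted p = 0.000383), a call that held under all 17 alternatives (8 other settings of the fit and 9 left-out libraries, none with a minimum change).

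The HSP70 gene that rose was heat shock protein 70 kD on chromosome 6. It stood at 152, 170 and 253 in WT, at 470, 438 and 368 in the LBD40 knockout and at 220, 177 and 213 in the WRKY37 knockout. All LBD40 knockout libraries lay above all others, while those of the WRKY37 knockout lay within the range of WT. The ratio of means was 2.22 against WT (log2 change of 1.17, SE 0.18, adjusted p = 0.00142) and 2.09 against the WRKY37 knockout (1.06, SE 0.18, adjusted p = 0.00369). Of the matched HSP70 genes, only those on chromosomes 6 and 7 were called in the LBD40 knockout against WT, 1 in each direction. They are set side by side only for that reason. A 70 kDa heat shock protein gene on chromosome 11, left out of the match by its word order, also rose and is described under other observations. In the WRKY37 knockout the gene on chromosome 6 had a log2 change of 0.11 (SE 0.18, adjusted p = 0.753).

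The most abundant HSP70 genes, both described as cognates, a class of HSP70 that is made without heat, did not pass in either knockout. The hsc-2 heat shock protein cognate 70 on chromosome 10 (Hsc70.2 in RefSeq) ranged from 959 to 1642 over the 9 libraries, with both extremes in knockout libraries. Its log2 change was -0.07 in the LBD40 knockout (95% interval -0.50 to 0.36) and 0.02 in the WRKY37 knockout (-0.41 to 0.45). The ethylene-responsive cognate on chromosome 4 had 516 ± 93.5 in WT, 383 ± 86.3 in the LBD40 knockout and 554 ± 113 in the WRKY37 knockout, and its groups overlapped. Among the other 12 tested HSP70 genes no call was made against WT, and their means over all libraries ran from 3.81 to 273.

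Of the 10 tested genes counted with HSP90, 3 were called in the LBD40 knockout (30%, beside 37.2% of all tested genes). Of the 6 tested genes described as HSP90, 1 rose (16.7%, beside 18%). Of the 4 tested HSP90-like ATPase genes, 2 fell (50%, beside 19.2%), and the other 2 had changes of -0.02 and -0.29 that did not pass. Whether the kinds differed was not tested. The gene that rose, heat shock protein 90 on chromosome 6, stood at 281, 224 and 307 in WT, at 453, 481 and 340 in the LBD40 knockout and at 294, 251 and 291 in the WRKY37 knockout. LBD40 knockout libraries were all above WT, replicate 3 only narrowly (340 against 307). The ratio of means was 1.57 (log2 change of 0.64, SE 0.16, adjusted p = 0.0111), and without LBD40 knockout replicate 2 the call was lost (adjusted p = 0.0501).

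The clearest of the HSP90-like ATPase genes lay on chromosome 3. It had 24.9, 25.2 and 24.4 in WT, 12.8, 14.8 and 16.3 in the LBD40 knockout and 20.6, 22.6 and 17.2 in the WRKY37 knockout. WT was above both knockouts in every library, with the LBD40 knockout lowest. The log2 change was -0.73 in the LBD40 knockout (SE 0.13, adjusted p = 0.00277) and -0.30 in the WRKY37 knockout (SE 0.13, adjusted p = 0.193). In the WRKY37 knockout it passed only with median-ratio scaling (adjusted p = 0.0399) or quantile normalization (adjusted p = 0.0456). Its relative on chromosome 2 had 31.4, 32.0 and 28.6 in WT and fell to 21.6, 24.7 and 25.6 in the LBD40 knockout (log2 change of -0.34, SE 0.12, adjusted p = 0.0435), a call lost when any WT or LBD40 knockout library, or WRKY37 knockout replicate 1, was left out (adjusted p up to 0.146).

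Of 16 tested chaperonin genes, 5 rose and 1 fell in the LBD40 knockout, which is 37.5% called beside 37.2% of all tested genes. By direction, 31.25% rose, beside 18% of all tested genes, and 6.25% fell, beside 19.2%. Of 5 tested genes for co-chaperonins, which form the lid of the barrel, 3 rose (60%) and none fell, with a median log2 change of 0.57. The other 2 had changes of 0.04 and 0.29 that did not pass. Of 9 chaperonin 60 genes, which form the barrel, 2 rose (22.2%), 1 fell (11.1%) and 6 did not pass. Whether lid and barrel genes differed was not tested. Neither of the 2 tested genes described as RbcX, a chaperone of Rubisco assembly, passed (log2 changes of 0.08 and 0.05). Markers of green tissue were 51 tested genes for chlorophyll-binding proteins, photosystems and the Rubisco small subunit. In the LBD40 knockout 13 rose and none fell (25.5% called, beside 37.2% of all tested genes, and 18% of all tested genes rose). In the WRKY37 knockout 2 rose and 8 fell (19.6% called, beside 9.38%). Between the knockouts 31 were higher and 2 lower in the LBD40 knockout (64.7% called, beside 27%). The summed share of these markers covered 185 listed genes, of which 67 are at 0 in all libraries. It was 0.0360 to 0.0802% in WT, 0.0721 to 0.0959% in the LBD40 and 0.0253 to 0.0406% in the WRKY37 knockout, so WT and the LBD40 knockout overlapped. Their part in the chaperonin values was not tested, and in seed RNA fewer cells of a type and less RNA per cell cannot be told apart.

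Chaperonin 21 precursor on chromosome 7, known in other plants as a co-chaperonin of plastids, had the smallest adjusted p among the chaperone genes that rose. Its values were 184, 200 and 222 in WT, 333, 347 and 338 in the LBD40 knockout and 241, 227 and 219 in the WRKY37 knockout. LBD40 knockout libraries were far above the rest and close to each other, while WRKY37 knockout libraries overlapped with WT. The ratio of means was 1.68 (log2 change of 0.75, SE 0.10, adjusted p = 0.000638), and against the WRKY37 knockout it was 1.48 (adjusted p = 0.00351).

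Both of the other co-chaperonin genes that rose are described as 10 kDa chaperonin. The gene on chromosome 1 had 48.4, 57.3 and 77.6 in WT, 137, 117 and 117 in the LBD40 knockout and 64.0, 72.5 and 55.7 in the WRKY37 knockout, a ratio of means of 2.02 against WT (log2 change of 1.03, SE 0.17, adjusted p = 0.00184). Copy 2 on chromosome 12 had 148, 166 and 189 in WT, 242, 255 and 246 in the LBD40 knockout and 180, 184 and 159 in the WRKY37 knockout, a ratio of 1.48 (log2 change of 0.57, SE 0.11, adjusted p = 0.00379). In both genes the LBD40 knockout stood above WT and the WRKY37 knockout without overlap, and WT and the WRKY37 knockout overlapped. Both were also called higher than in the WRKY37 knockout (adjusted p = 0.00449 and 0.00984). The most abundant co-chaperonin, 10 kDa chaperonin on chromosome 7, was at 322 ± 38.1 in WT and 332 ± 44.8 in the LBD40 knockout.

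The changes in chaperonin 60 genes were smaller. Chaperonin 60 beta on chromosome 3 had 59.7, 67.7 and 68.3 in WT, 88.9, 86.0 and 84.4 in the LBD40 knockout and 57.7, 55.6 and 46.7 in the WRKY37 knockout. The groups were ordered without overlap, the LBD40 knockout highest and the WRKY37 knockout lowest. It rose in the LBD40 knockout by 0.40 on the log2 scale (SE 0.11, adjusted p = 0.0169), but not without LBD40 knockout replicate 1 or 2 or WT replicate 1 (adjusted p = 0.0578, 0.0515 and 0.0682). Between the knockouts it differed by 0.69 (SE 0.11, adjusted p = 0.00246).

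The chaperonin 60 gene that fell was 60 kDa chaperonin on chromosome 2, from 55.1, 52.8 and 59.6 in WT to 31.8, 37.3 and 36.9 in the LBD40 knockout. The groups did not overlap, and the log2 change was -0.65 (SE 0.16, adjusted p = 0.0106). The other gene that rose, 60 kDa chaperonin on chromosome 6, lay outside the rule for named genes and is named after its values were seen. It went from 52.8 ± 3.73 in WT to 69.1 ± 3.38 in the LBD40 knockout (log2 change of 0.38, SE 0.12, adjusted p = 0.0314). The call was lost without any one of the 6 libraries of these groups (adjusted p up to 0.110). In the WRKY37 knockout the gene stood at 76.8, 68.6 and 57.3, also above every WT library. Its change there was of like size but did not pass (log2 change of 0.34, SE 0.12, adjusted p = 0.108). The 3 most abundant chaperonin 60 genes did not pass. Beta chaperonin 60 on chromosome 1, at 494 ± 45.1 in WT and 590 ± 33.9 in the LBD40 knockout, did so when libraries were scaled to equal totals, by median ratios or by quantiles (adjusted p = 0.0421, 0.0266 and 0.0484). The 60 kDa chaperonins on chromosomes 11 and 5 had log2 changes of 0.24 and -0.15 (adjusted p = 0.126 and 0.386).

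HSP101 and ClpB genes were few, and one rose. LeHSP110/ClpB heat shock protein on chromosome 2 had 57.2, 53.4 and 63.6 in WT, 99.3, 97.2 and 91.8 in the LBD40 knockout and 73.8, 66.6 and 70.7 in the WRKY37 knockout. The 3 groups did not overlap, with WT lowest and the LBD40 knockout highest. Its log2 change was 0.72 in the LBD40 knockout (SE 0.10, adjusted p = 0.000858; ratio of means 1.66) and 0.28 in the WRKY37 knockout (SE 0.10, adjusted p = 0.115). The ClpB gene next in level, copy 3 on chromosome 6, had 43.5 ± 5.06 in WT and 33.8 ± 3.87 in the LBD40 knockout, a log2 change of -0.36 that passed only in a fit of these 2 groups alone (adjusted p = 0.0492, against 0.113). Copy 1 was close to the minimum, with a mean of 1.21.

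Among the partner proteins, Hsp70-Hsp90 organizing protein 1 on chromosome 8, which passes clients from HSP70 to HSP90, fell in the LBD40 knockout. Its values were 458, 431 and 457 in WT, 339, 369 and 347 in the LBD40 knockout and 449, 513 and 515 in the WRKY37 knockout. LBD40 knockout libraries were all below the other 6. The ratio of WT to knockout means was 1.27 (log2 change of -0.35, SE 0.09, adjusted p = 0.0166), and the call was lost without LBD40 knockout replicate 1, WT replicate 1 or WT replicate 3 (adjusted p = 0.0649, 0.0545 and 0.0564). The nucleotide exchange factors FES1, which help HSP70 to release ADP, had log2 changes of 0.09 (95% interval -0.14 to 0.33) on chromosome 9 and -0.22 (-0.78 to 0.33) on chromosome 4 and did not pass.

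**Figure D3:**
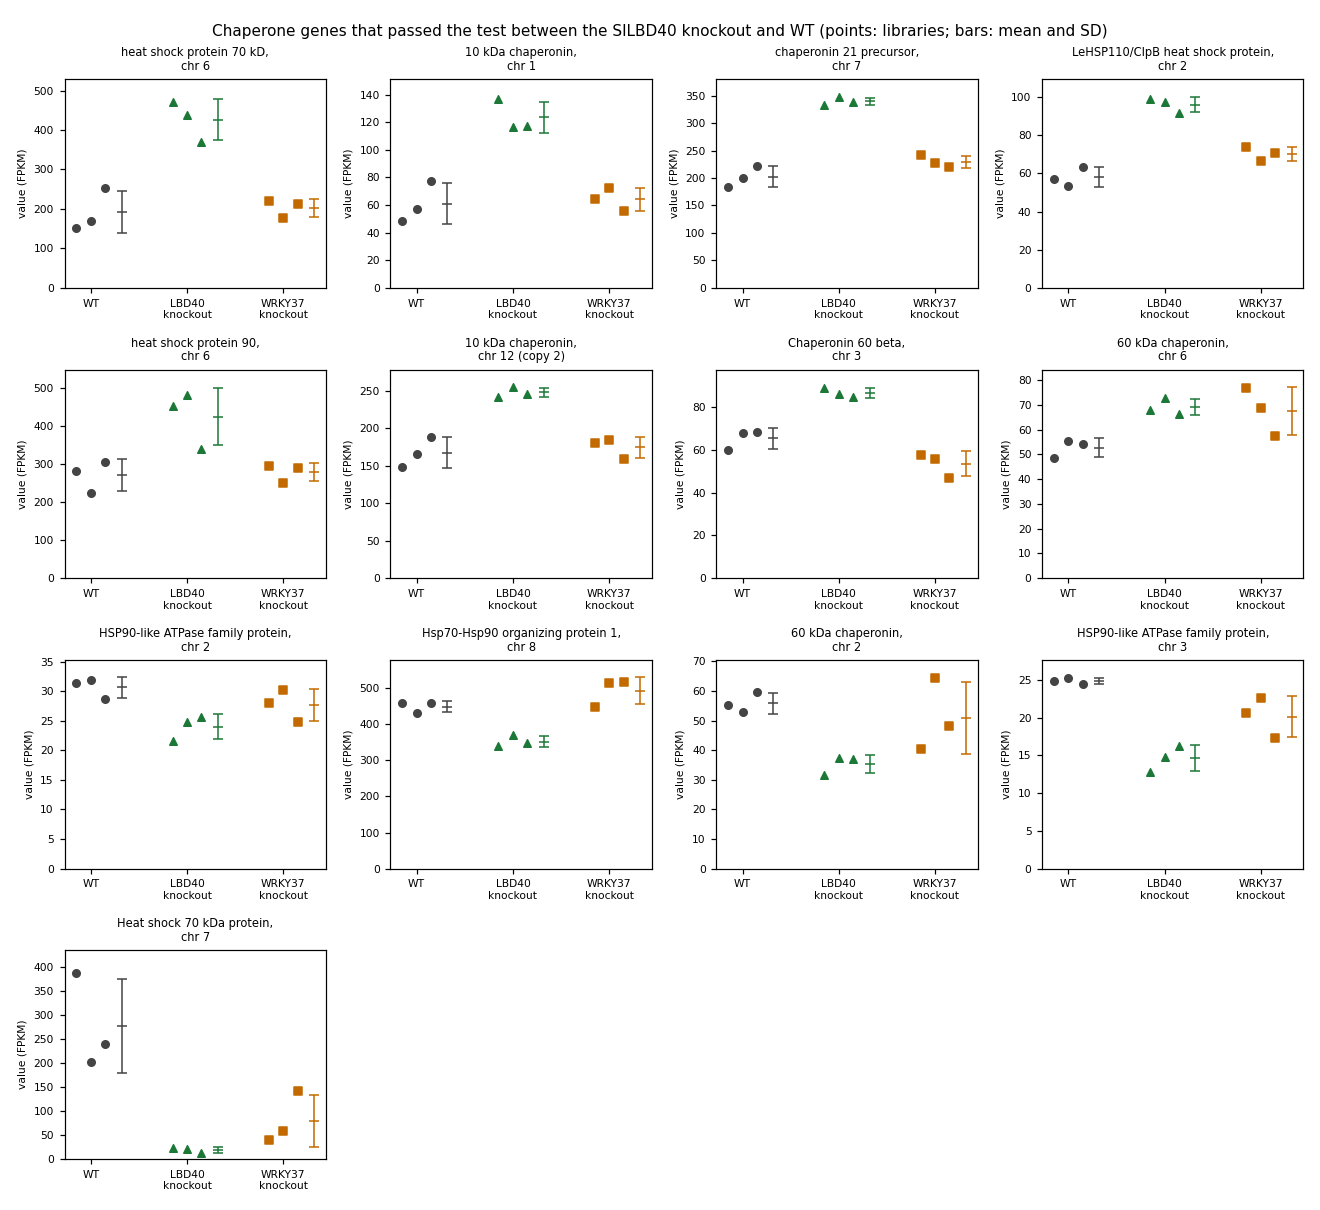
Values (taken as FPKM, linear axis from 0) of the 13 chaperone genes called between the SlLBD40 knockout and WT, in all 3 groups; points are libraries and bars the mean and SD of 3. In each panel the triangles of the SlLBD40 knockout lie wholly above or wholly below the circles of WT. The squares of the SlWRKY37 knockout overlap with WT in most panels but lie well below it for Heat shock 70 kDa protein on chromosome 7. They also lie wholly above WT for 60 kDa chaperonin on chromosome 6 and LeHSP110/ClpB on chromosome 2. For Chaperonin 60 beta and the HSP90-like ATPase gene, both on chromosome 3, they lie wholly below WT.

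The second comparison asked the same of the WRKY37 knockout. Of the 48 chaperone genes none rose, beside 4.82% of all tested genes, and 1 fell, beside 4.56% (2.08% called in all, beside 9.38%). At an unadjusted limma p below 0.05, 5 of the 48 chaperone genes were higher and 4 lower, beside 2521 and 2081 of all 18346 tested genes. The median log2 change was 0.03, against 0.02 over all tested genes. Without WRKY37 knockout replicate 3, 2 genes rose, Heat shock protein 90-1 on chromosome 3 (adjusted p = 0.0386) and 60 kDa chaperonin on chromosome 6 (adjusted p = 0.0247). The gene that fell was Heat shock 70 kDa protein on chromosome 7, at 277 ± 98.1 in WT and 79.6 ± 54.5 in the WRKY37 knockout, a ratio of 3.48 (log2 change of -1.94, SE 0.43, adjusted p = 0.0210). This call was lost in 6 of 17 alternatives: without WT replicate 1, WT replicate 3, WRKY37 knockout replicate 1 or replicate 2, without the low-value filter, and in a fit of these 2 groups alone (adjusted p from 0.0566 to 0.0874). Without WRKY37 knockout replicate 3, its log2 change was -2.45 (adjusted p = 0.00274). Without WRKY37 knockout replicate 2, the 1 gene called lower was instead Chaperonin-60 kDa protein on chromosome 3 (log2 change of -0.51, adjusted p = 0.0476).

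Replicate 3 of the WRKY37 knockout, in which this HSP70 gene stood at 142 against 39.1 and 58.1, also held the most RNA of seed reserve markers in its group. Oleosins, which coat oil bodies, took 0.603% of that library and 0.341 and 0.308% of the other WRKY37 knockout libraries, and storage proteins 1.11% against 0.402 and 0.491%. Over the groups, the share of oleosins (19 genes, 8 at 0 in all libraries) was 0.790 to 1.05% in WT, 0.308 to 0.398% in the LBD40 and 0.308 to 0.603% in the WRKY37 knockout. Late embryogenesis abundant proteins and dehydrins (99 genes, 16 at 0 in all) took 5.79 to 7.20%, 2.07 to 2.60% and 2.25 to 3.40%. Storage proteins (67 genes, 28 at 0 in all) took 0.935 to 1.12%, 0.300 to 0.358% and 0.402 to 1.11%. All 9 tested oleosins fell in the LBD40 knockout (100% called) and 7 of 9 in the WRKY37 knockout (77.8%). Over all tested genes, 37.2 and 9.38% were called. Of 62 tested late embryogenesis abundant proteins and dehydrins, 20 fell and 14 rose in the LBD40 knockout (54.8% called). In the WRKY37 knockout 23 of them fell and 4 rose (43.5%). Of 22 tested storage proteins, 7 fell and 7 rose in the LBD40 knockout (63.6%). In the WRKY37 knockout 3 of these fell and 5 rose (36.4%). The markers show that seed reserve RNA was present in every library, and the part of seed reserves or seed stage in the chaperone values was not tested.

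Markers of other tissues were low. Pollen markers (19 genes, 10 at 0 in all) took 0.00466 to 0.00534% of WT libraries, 0.00680 to 0.00733% of LBD40 knockout and 0.00473 to 0.00686% of WRKY37 knockout libraries. Only 4 were tested, and 2 rose in the LBD40 knockout (50%, beside 18% of all tested genes). Of the 2 fruit markers, 1 was tested; it fell in the LBD40 knockout, and the pair took 0.00120 to 0.00140% there against 0.00160 to 0.00196% in WT and 0.00153 to 0.00195% in the WRKY37 knockout. Their part in the chaperone values was not tested.

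The third comparison set the knockouts against each other, since a call in one and none in the other does not show that they differ. Of the 48 chaperone genes, 7 were higher in the LBD40 than in the WRKY37 knockout (14.6%, beside 12.9% of all tested genes) and 5 were lower (10.4%, beside 14.1%). In all, 25% of chaperone and 27% of all tested genes were called. The higher genes were heat shock protein 70 kD and heat shock protein 90 on chromosome 6, the 3 co-chaperonins named above, Chaperonin 60 beta on chromosome 3 and LeHSP110/ClpB on chromosome 2. Of these, heat shock protein 90 (log2 difference of 0.59, SE 0.16, adjusted p = 0.0218) lost its call with quantile normalization and without LBD40 knockout replicate 1, LBD40 knockout replicate 2 or WRKY37 knockout replicate 2 (adjusted p up to 0.0888), and the other 6 kept theirs under the 17 alternatives. With a minimum log2 change of 1, 1 chaperone gene was higher and 1 lower. LeHSP110/ClpB differed by 0.44 (SE 0.10, adjusted p = 0.0108).

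Genes lower in the LBD40 than in the WRKY37 knockout included Heat shock 70 kDa protein on chromosome 7 (log2 difference of -1.86, SE 0.43, adjusted p = 0.0125) and Hsp70-Hsp90 organizing protein 1 on chromosome 8 (-0.48, SE 0.09, adjusted p = 0.00630), both also under the 17 alternatives. The other 3 were 60 kDa chaperonin on chromosome 2 (-0.49, SE 0.16, adjusted p = 0.0418), the HSP90-like ATPase gene on chromosome 3 (-0.43, SE 0.13, adjusted p = 0.0364) and Heat shock protein 70 family on chromosome 12 (-0.34, SE 0.10, adjusted p = 0.0390), the last named after its values were seen. Each of these 3 lost its call under at least 9 of 17 alternatives. Without LBD40 knockout replicate 1 or 2, WRKY37 knockout replicate 2 or any one WT library, 2 genes were lower, and with quantile normalization 8 were lower beside 7 higher. The median log2 difference was -0.07 over the chaperone genes and -0.08 over all tested genes.

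Summed over the 63 genes, the share of chaperones in the library total overlapped between WT and each knockout. It was 1.72, 1.53 and 1.75% in WT, 1.64, 1.71 and 1.52% in the LBD40 knockout and 1.84, 1.79 and 1.74% in the WRKY37 knockout. All WRKY37 knockout libraries were above all LBD40 knockout libraries. Without Hsp90-2 the means were 0.921 ± 0.0535%, 0.966 ± 0.0679% and 0.963 ± 0.0255% in the same order. No test is given for such sums.

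Family by family, the chaperonins had their largest mean share in the LBD40 knockout and HSP90 in the WRKY37 knockout. For HSP90, WT and the WRKY37 knockout overlapped (0.775 to 0.918% and 0.891 to 0.994%). Most of it was Hsp90-2, which alone took 0.762 to 0.857% of WRKY37 knockout libraries. HSP90 took 0.868 ± 0.0801% of WT, 0.796 ± 0.0416% of LBD40 knockout and 0.957 ± 0.0573% of WRKY37 knockout libraries, and HSP70 took 0.412 ± 0.0401%, 0.394 ± 0.0526% and 0.410 ± 0.0449%. HSP60 and other chaperonins took 0.290, 0.321 and 0.336% in WT, 0.371, 0.373 and 0.372% in the LBD40 knockout and 0.321, 0.364 and 0.346% in the WRKY37 knockout. The chaperonin share was higher in every LBD40 knockout library than in any other library. Within the chaperonins, the co-chaperonins took 0.103 ± 0.00991% in WT, 0.142 ± 0.00477% in the LBD40 knockout and 0.120 ± 0.00588% in the WRKY37 knockout. For co-chaperonins, every library of either knockout lay above every WT library. In WT, the LBD40 knockout and the WRKY37 knockout, HSP101 and ClpB took 0.0114 ± 0.000660%, 0.0148 ± 0.000710% and 0.0125 ± 0.00157%. The partner proteins took 0.0583 ± 0.00218%, 0.0487 ± 0.00196% and 0.0636 ± 0.00401% in the same order.

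**Figure D4:**
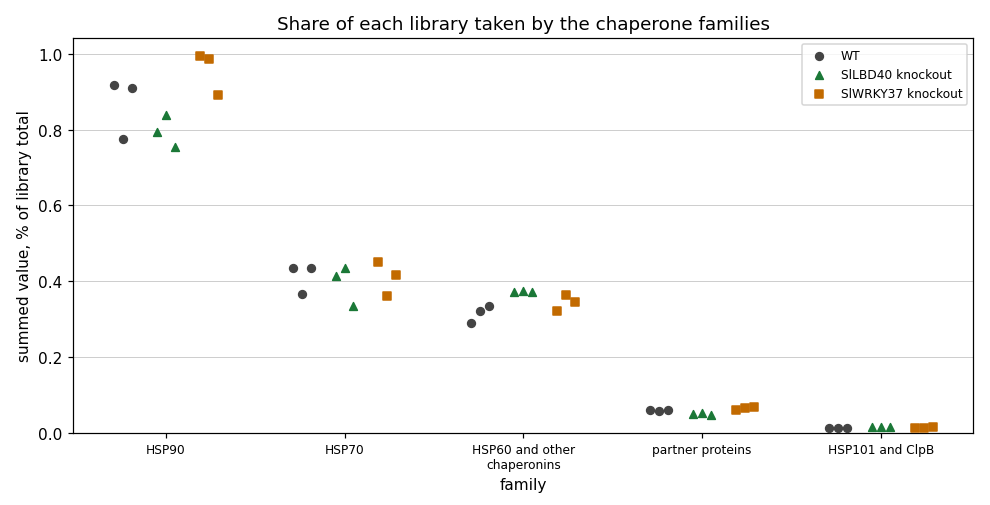
Summed expression value of each chaperone family as a percent of the library total, 1 point per library (circles WT, triangles SlLBD40 knockout, squares SlWRKY37 knockout). HSP90 takes 0.755 to 0.994% of a library, and the 3 triangles of the chaperonins lie together at 0.371 to 0.373%, above all other chaperonin points.

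Other genes of the folding pathway were taken from lists of description patterns. DnaJ proteins, which bring clients to HSP70, had 25 lower and 10 higher of 97 tested in the LBD40 knockout (median log2 change of -0.09), and 4 lower and 2 higher in the WRKY37 knockout. Called in all were 36.1%, beside 37.2% of all tested genes, and 6.19%, beside 9.38%. Small heat shock proteins, which hold unfolded proteins without ATP, had 8 higher and 4 lower of 34 in the LBD40 knockout (median 0.24) and 7 higher and 1 lower in the WRKY37 knockout (median 0.09), that is, 35.3 and 23.5% called. In a fit of 2 groups alone, 13 small heat shock proteins rose in the LBD40 knockout and 3 in the WRKY37 knockout. Of 20 heat stress transcription factors, which switch on heat shock genes, 5 rose and 5 fell in the LBD40 knockout, and 1 rose and 1 fell in the WRKY37 knockout (50 and 10% called). With 1 library left out at a time, the counts in the LBD40 knockout ran from 11 (without LBD40 knockout replicate 1) to 27 lower DnaJ genes and from 5 (without LBD40 knockout replicate 2 or WT replicate 2) to 11 higher small heat shock proteins, and those of heat stress transcription factors from 2 to 6 in each direction; in the WRKY37 knockout 4 to 8 small heat shock proteins were higher.

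In the LBD40 knockout, BAG and nucleotide exchange factors had 3 higher and 2 lower of 15, endoplasmic reticulum folding proteins 2 higher and 2 lower of 20, and peptidyl-prolyl isomerases, which turn proline bonds, 4 higher and 7 lower of 34. HSP90 co-chaperones had 1 lower of 5, and Clp proteases, which degrade unfolded proteins, 3 higher and 3 lower of 21. The shares called were 33.3, 20, 32.4, 20 and 28.6%, below the 37.2% of all tested genes. These counts moved with the scaling of libraries: higher Clp proteases numbered 7 with equal library totals, 8 with median-ratio scaling and 6 with quantile normalization, 1 HSP90 co-chaperone was higher with either of the first 2, and endoplasmic reticulum folding proteins had 5 higher and 4 lower with median-ratio scaling. In the WRKY37 knockout none of these 5 lists had a call, but with median-ratio scaling 2 peptidyl-prolyl isomerases were higher and 2 lower and 2 endoplasmic reticulum folding proteins were higher, and 1 of each was higher with equal library totals. As deposited, at an unadjusted limma p below 0.05, the 5 lists had 2, 2, 2, 0 and 1 higher and 0, 0, 3, 1 and 2 lower. These are out of 15, 20, 34, 5 and 21 tested, beside 2521 higher and 2081 lower of all 18346 tested genes. Between the knockouts, 2, 0, 5, 0 and 4 genes of these lists were higher and 2, 2, 6, 1 and 0 lower in the LBD40 knockout. The shares called were 26.7, 10, 32.4, 20 and 19.0%, beside 27% of all tested genes (12.9% higher and 14.1% lower).

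**Figure D5:**
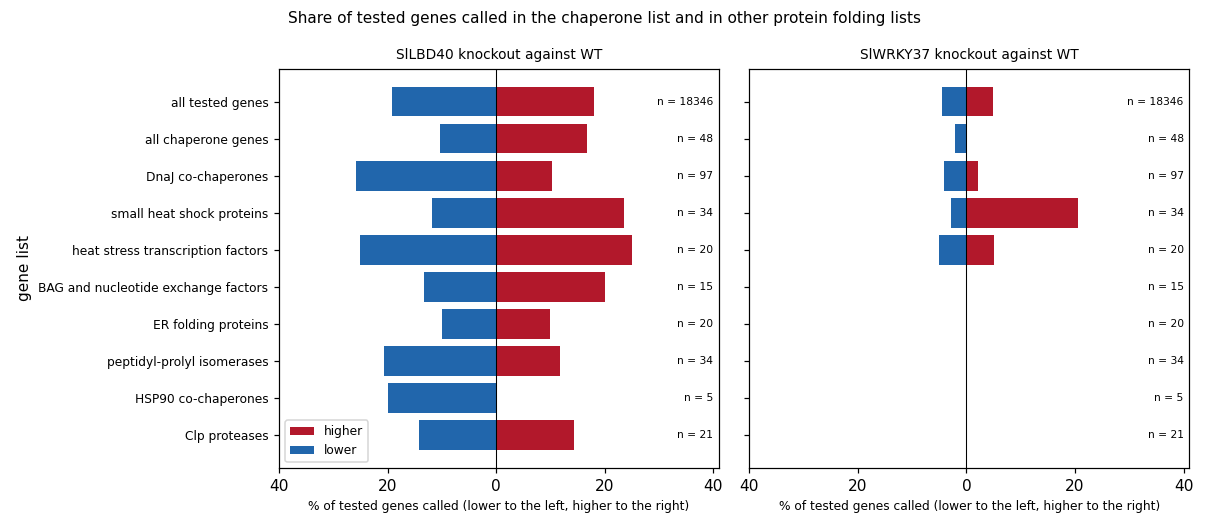
Percent of tested genes called higher (right of 0) and lower (left of 0) in the SlLBD40 knockout (left panel) and the SlWRKY37 knockout (right panel) against WT, for all tested genes, the large chaperones and 8 other protein folding lists, with the number tested at the right. In the left panel all tested genes reach 18% higher and 19.2% lower and the large chaperones 16.7% and 10.4%; in the right panel the bar of small heat shock proteins to the right is the longest.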

How the data were processed

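RNA of 9 seed libraries was sequenced, 3 per group. The labels name a Qiagen kit for RNA extraction and the SMARTER mRNA-Seq kit for library preparation. TopHat2, HISAT2, StringTie and Cufflinks are named in the submitters' processing notes without versions or roles, and no source used here gives the build or the annotation. The values deposited by the authors carry 2 decimals and were taken as FPKM, a unit that no header states. The deposited column of WT replicate 1 touches the gene names, was recorded as another unit and was read by character position. The depth per library is unknown, so no counting interval is given. Gene IDs are cut to 8 characters.

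Families were assigned by description. Members and lists were chosen with earlier results of these data known. RefSeq symbols (assembly SLM_r2.1) were matched by name for 2 of 63 genes. Genes with a mean of at least 1 entered limma-trend (limma 3.58.1, R 4.3.3, no robust option) on log2(value + 1), with all 9 libraries in 1 fit and genotype as the only term. The pseudocount of 1 shrinks the log2 change of genes with low values. The fit was tested on simulated data. Shares are sums over the library total; the planned exact test of 3 against 3 libraries cannot go below p = 0.1, and no p is given for them. Tables and figures were made in Python 3.11.15 with pandas 2.3.3, numpy 2.4.6 and matplotlib 3.10.9.

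Named genes were, in each family, up to 4 called higher and 4 called lower against WT by adjusted p (where the higher group's mean reached 5), the 3 most abundant, those called in both knockouts, and the 3 higher and 3 lower with the largest change between the knockouts. The rule named 23 genes. Alternatives changed the pseudocount (0.1), the filter (a mean of 5, or none), the scaling (equal totals, median ratios, quantiles) and the model (2 groups per fit, replicate number as a block), asked for a log2 change of at least 1, or left out 1 library at a time. Protein and promoter sequences were not used here.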

Additional observations from a re-analysis of the deposited data

How the results depend on the processing

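With a minimum log2 change of 1, the chaperone genes called in the LBD40 knockout against WT were 2 higher and 1 lower (8 and 5 without it), those between the knockouts 1 higher and 1 lower (7 and 5), and all genes called 2005, 816 and 1499 against 6826 in the LBD40 knockout, 1721 in the WRKY37 knockout and 4953 between the knockouts. In a fit of only the 2 groups compared, 8 chaperone genes were lower in the LBD40 knockout, 0 in the WRKY37 knockout and 2 between the knockouts, and all genes called numbered 802 in the WRKY37 knockout and 3147 between the knockouts. Quantile normalization gave 8, 2 and 8 lower chaperone genes in the same order. In the WRKY37 knockout, median-ratio scaling gave 2 lower chaperone genes and the fit without a low-value filter 0. The median log2 difference of the chaperone genes between the knockouts was -0.07, and 0.0014 with median-ratio scaling and -0.0098 without the filter. Causes were not tested.

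Leaving out 1 library at a time, chaperone genes called numbered 5 to 8 higher and 3 to 7 lower in the LBD40 knockout, 0 to 2 higher and 0 to 1 lower in the WRKY37 knockout, and 6 to 8 higher and 2 to 6 lower between the knockouts. All genes called ranged from 4533 to 7641, from 783 to 2629 and from 2282 to 5192, and the median difference between the knockouts from -0.128 to -0.0283. With the replicate number as a block, 7 chaperone genes were higher and 4 lower in the LBD40 knockout, 0 and 1 in the WRKY37 knockout, and 7 and 3 between the knockouts. The HSP90-like ATPase gene on chromosome 2 and 60 kDa chaperonin on chromosome 6 were then not called against WT (adjusted p = 0.0677 and 0.0513), nor the HSP90-like ATPase gene on chromosome 3 and Heat shock protein 70 family on chromosome 12 between the knockouts (0.0637 and 0.0572). Libraries of the same number did not deviate together (0 of 9 pairs correlated above 0.1; from -0.10 to 0.06), so the number was not treated as pairing.

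Under the 17 alternatives other than the minimum log2 change, no named call changed direction. Of the 13 calls in the LBD40 knockout, 8 held under all 17, of the 12 between the knockouts 8, and the 1 in the WRKY37 knockout did not. Without read counts, the precision of single values cannot be given.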

Other observations

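The cytosolic chaperonin, known as T-complex protein 1 or CCT, folds actin and tubulin and lies outside the description match used for the chaperones; it was looked at after its values were seen. Of 11 subunit genes, 9 were tested, and 5 fell and none rose in the LBD40 knockout, with a median log2 change of -0.41; over all tested genes 19.2% fell, 18% rose and the median was -0.02. Subunit theta on chromosome 1 had 203, 194 and 202 in WT, 132, 133 and 140 in the LBD40 knockout and 158, 213 and 181 in the WRKY37 knockout, a log2 change of -0.56 in the LBD40 knockout (SE 0.11, adjusted p = 0.00452). Subunit gamma on chromosome 5 went from 260 ± 2.18 to 184 ± 14.1 (adjusted p = 0.0110). Subunits delta on chromosome 3, zeta on chromosome 2 (copy 1) and beta on chromosome 11 also fell (adjusted p = 0.0132, 0.0272 and 0.0442). Subunit epsilon on chromosome 5 was at 237 ± 3.37 in WT and 235 ± 14.7 in the LBD40 knockout. No subunit passed in the WRKY37 knockout, where the median was -0.06, and 2 were lower in the LBD40 than in the WRKY37 knockout.

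The word order of the description match also left out 3 genes described as 70 kDa heat shock protein, noticed after their values were seen. The gene on chromosome 11 had 51.6, 44.3 and 63.6 in WT, 135, 140 and 88.8 in the LBD40 knockout and 95.1, 92.8 and 76.0 in the WRKY37 knockout. Both knockouts lay above WT without overlap, with log2 changes of 1.16 (SE 0.19, adjusted p = 0.00183) and 0.73 (SE 0.19, adjusted p = 0.0416). On chromosome 1 the values were 278 ± 18.0, 294 ± 15.1 and 263 ± 33.9, and the gene on chromosome 6 is listed at 0 in every library.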
